A study of Homo sapiens with 12 samples.

Results

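The IFIT and OAS families are 8 antiviral genes, IFIT1, IFIT2, IFIT3, IFIT5, OAS1, OAS2, OAS3 and OASL, out of 20046 genes named on the arrays. Their members were taken by gene symbol: every probe annotated to one of the 8 genes was used, which gave 19 of 47323 probes. IFIT3 had 3 probes, OAS1 and OAS2 had 4 each, IFIT1, OAS3 and OASL had 2 each, and IFIT2 and IFIT5 had 1 each. Of the 19 probes, 17 were detected on both arrays of at least 1 group and were kept, and the brightest kept probe stood for its gene. One OAS1 and one OAS3 probe were not kept.

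The cells were JIMT1, an established epithelial-like breast cancer line that carries HER2 without estrogen or progesterone receptor and is resistant to trastuzumab. Gene expression was read on Illumina HumanHT-12 v4 bead arrays on 12 arrays, which form 6 groups of 2 biological replicates. The groups were 2D7d (a monolayer grown for 7 days), MG4d and MG7d (cells on top of Matrigel, a gel of basement membrane proteins, for 4 and 7 days), PH4d and PH7d (cells kept from attaching by a polyHEMA coating for 4 and 7 days) and xenograft (tumors from nude mice of the BALB/C strain, taken from the fat pad 43 days after injection). The labels list no drug or interferon for any group, and all groups came from this 1 line. The Matrigel cultures were freed with Dispase before RNA isolation and held less serum by the study's methods, and the tumors were injected together with Matrigel into mice that lack T cells but keep innate immune cells. These differences cannot be told apart from the culture model itself.

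Interferon-stimulated genes are switched on when secreted interferons bind their receptors and a signal passes from there to the promoters of these genes, with IRF9 as 1 of the factors that bind them. IFIT proteins (interferon-induced proteins with tetratricopeptide repeats) bind foreign RNA, and IFIT1 recognises the cap of viral RNA. OAS enzymes (oligoadenylate synthetases) sense double-stranded RNA and make a small second messenger of linked adenylates. OASL has lost this enzyme activity and acts through RNA sensor signaling. Both families are sensitive reporters of interferon signaling in epithelial cells.

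The 4 IFIT genes lie together on chromosome 10 (GRCh38.p14), between 89302046 (start of IFIT2) and 89420997 (end of IFIT5). OAS1 (112906962 to 112933219), OAS3 (112938474 to 112973251) and OAS2 (112978519 to 113011723) follow each other on chromosome 12, and OASL lies further along it (121017761 to 121039246). The promoters of 5 members were given, 6 promoters in all since IFIT3 has 2 start sites (RefSeq, GRCh38.p14), while those of IFIT2, OAS2 and OASL were not used here. In the 250 bases before each start, the motif GAAANNGAAA, the core letters of the interferon-stimulated response element, was searched on both strands. It was in 5 of 6 member promoters and each of these held it 2 times, whereas 3.02% of all 35116 promoters held it and 0.225% held it 2 or more times. OAS1 was the exception, and a shorter form, GAAANGAAA, searched after the sequences had been seen, starts 17 bases before the OAS1 start. The shorter form was in 3 of 6 member promoters and in 2.69% of all promoters, and it overlaps the longer one in OAS3 and in 1 of the 2 IFIT3 promoters. The following 4 promoters show both forms and both families, with matches to either motif in capitals. TTTC runs in the IFIT genes are the same motif read on the opposite strand.
IFIT1, chr10:89392373-89392622, + strand: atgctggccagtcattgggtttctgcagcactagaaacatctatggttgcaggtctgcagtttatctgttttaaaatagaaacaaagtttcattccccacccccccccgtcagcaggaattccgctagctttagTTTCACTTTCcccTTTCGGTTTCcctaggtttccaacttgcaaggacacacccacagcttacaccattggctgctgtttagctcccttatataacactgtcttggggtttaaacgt
IFIT5, chr10:89414318-89414567, + strand: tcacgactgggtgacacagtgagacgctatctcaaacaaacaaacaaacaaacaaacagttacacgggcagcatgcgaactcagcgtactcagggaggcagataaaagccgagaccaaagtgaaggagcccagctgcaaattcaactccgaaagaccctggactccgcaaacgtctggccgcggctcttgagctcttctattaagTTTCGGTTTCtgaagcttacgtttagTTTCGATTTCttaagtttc
OAS1, chr12:112906712-112906961, + strand: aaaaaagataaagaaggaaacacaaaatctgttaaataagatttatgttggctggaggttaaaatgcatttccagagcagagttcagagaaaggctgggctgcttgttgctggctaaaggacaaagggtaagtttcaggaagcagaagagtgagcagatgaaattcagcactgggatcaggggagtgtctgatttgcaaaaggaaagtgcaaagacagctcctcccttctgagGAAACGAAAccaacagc
OAS3, chr12:112938224-112938473, + strand: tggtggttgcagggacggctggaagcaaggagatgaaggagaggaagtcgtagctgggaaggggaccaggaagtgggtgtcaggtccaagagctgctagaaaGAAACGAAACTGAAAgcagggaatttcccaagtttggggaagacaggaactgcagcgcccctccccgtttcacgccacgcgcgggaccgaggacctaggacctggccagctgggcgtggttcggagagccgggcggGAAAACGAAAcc
The matches lie 116 and 103 bases before the start in IFIT1 and 45 and 19 bases before it in IFIT5. In OAS3 the longer motif starts 143 and 12 bases before the start. A match is a description of the letters, not evidence of a bound factor.

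Levels are given as normalized intensities on the log2 scale, where 1 unit is a 2-fold difference, and a gene was detected on an array where its detection p-value was under 0.01. Between 13952 and 18430 probes were detected per array. The duplicates of PH4d and PH7d stood apart from each other, with a median absolute gap over all genes of 0.802 and 0.686, against 0.15 to 0.228 in the other groups. In PH4d 21.6% of genes were at least 2-fold higher on replicate 1 and 16.6% were at least 2-fold higher on replicate 2. All 7 epithelial and JIMT1 markers, among them ERBB2 and KRT8, were detected on both arrays of every group. Progesterone receptor was not detected in any group, while the probe for the estrogen receptor gene ESR1 was detected. Of 10 macrophage and leukocyte markers, CD14, CD68 and CSF1R were detected on every array, ITGAM on 5 and AIF1 on 4. PTPRC, TYROBP, FCER1G, LYZ and CD163 were detected on no array. In such bulk RNA, fewer cells of a type and less RNA per cell cannot be told apart.

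Both families were high in polyHEMA cultures and intermediate or high in xenografts, and they were low in 2D and Matrigel. IFIT1 read 5.89 and 8.43 on the 2D7d arrays, 8.01 and 7.80 in MG4d, 7.94 and 7.86 in MG7d, 13.47 and 12.27 in PH4d, 13.96 and 11.79 in PH7d and 12.38 and 11.77 in xenograft. All 6 polyHEMA and xenograft arrays were thus above all 6 others, and the 2D arrays spanned the Matrigel values. IFIT2, which binds AU-rich RNA, read 7.75 and 8.14 in 2D7d, 9.05 and 9.26 in MG4d, 9.61 and 9.26 in MG7d, 12.75 and 11.30 in PH4d, 12.97 and 10.30 in PH7d and 11.22 and 10.74 in xenograft. Both 2D arrays were below the 4 Matrigel arrays, and its polyHEMA and xenograft arrays overlapped one another except for PH4d, both of whose arrays were above the xenografts.

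IFIT3, the partner that stabilises IFIT1 on RNA, read 5.09 and 5.23 in 2D7d, where neither array detected it. It read 6.52 and 6.79 in MG4d, 6.64 and 6.24 in MG7d, 12.29 and 9.43 in PH4d, 12.37 and 7.94 in PH7d and 10.36 and 9.56 in xenograft. The PH7d arrays lay on either side of the xenografts, 4.44 apart. IFIT5, an IFIT protein that binds RNA with a 5′ phosphate, was dim throughout: it was detected on both xenograft arrays (6.48 and 6.37), on 1 array each of PH4d (7.31 and 5.75) and PH7d (7.42 and 5.42), and on none in 2D7d (4.79 and 4.73), MG4d (5.67 and 5.15) or MG7d (5.37 and 5.22). Its polyHEMA replicate 2 arrays were below the xenografts.

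OAS1 read 6.79 and 8.13 in 2D7d, 5.86 and 6.29 in MG4d, 5.97 and 5.76 in MG7d, 10.02 and 11.67 in PH4d, 11.32 and 11.03 in PH7d and 8.39 and 7.92 in xenograft. The Matrigel arrays were the 4 lowest and the polyHEMA arrays the 4 highest, and 2D and xenograft overlapped. OAS2 read 4.71 and 8.56 in 2D7d, 4.60 and 4.61 in MG4d, 4.93 and 4.73 in MG7d, 12.21 and 13.15 in PH4d, 13.40 and 12.59 in PH7d and 10.98 and 10.36 in xenograft. None of the 4 Matrigel arrays and 1 of the 2D arrays detected it.

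OAS3, the longest enzyme of the family, read 5.95 and 8.36 in 2D7d, 5.80 and 5.32 in MG4d, 5.97 and 5.91 in MG7d, 10.54 and 11.83 in PH4d, 11.30 and 11.56 in PH7d and 9.34 and 8.90 in xenograft. OASL read 7.75 and 9.88 in 2D7d, 7.99 and 7.33 in MG4d, 7.18 and 6.71 in MG7d, 12.29 and 12.997 in PH4d, 12.17 and 12.44 in PH7d and 10.33 and 10.25 in xenograft. For OAS2, OAS3 and OASL the 4 polyHEMA arrays were above both xenograft arrays, and these were above both 2D arrays. The 2 days of polyHEMA culture overlapped for all 8 genes.

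**Figure D1:**
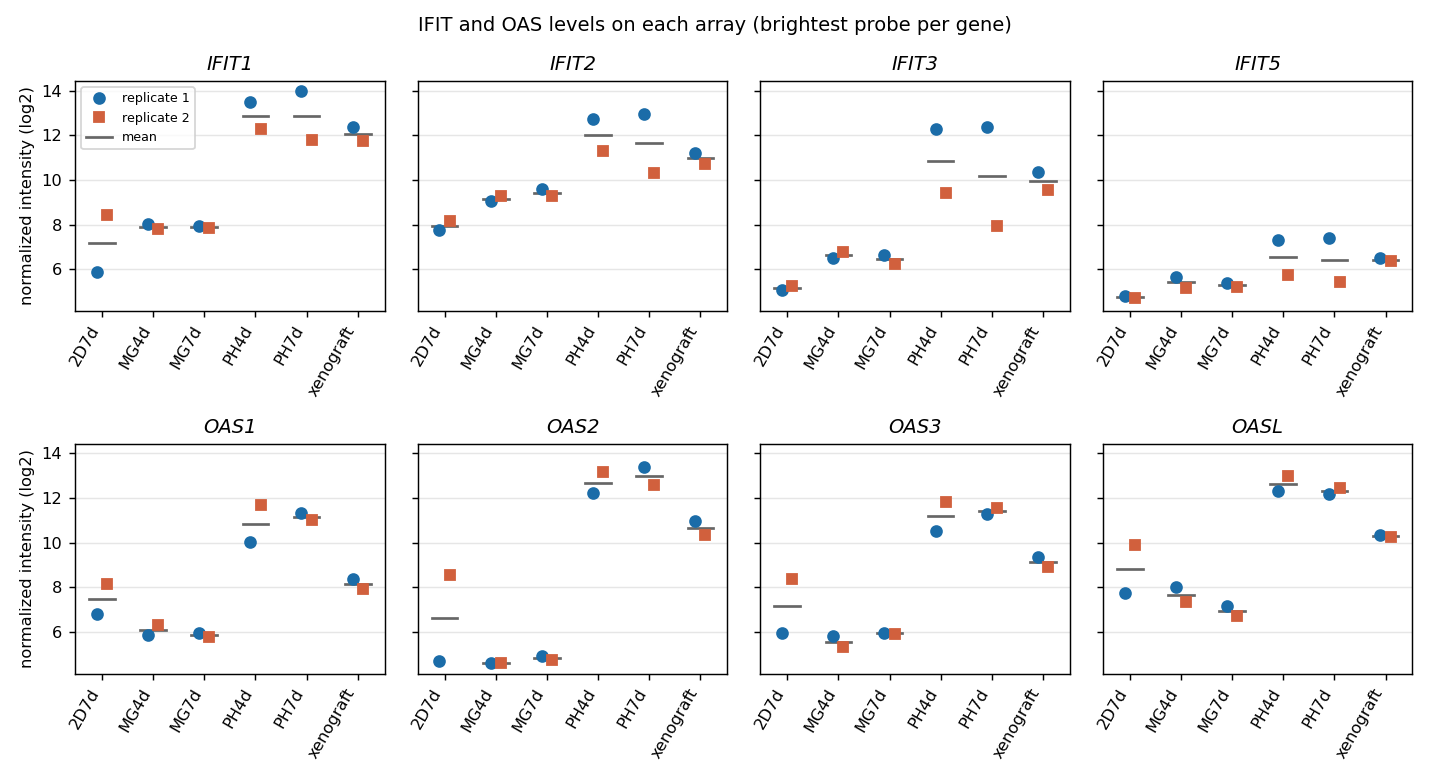
Normalized log2 intensity (y axis) of the brightest probe of each of the 8 genes in the 6 groups (x axis). Circles are replicate 1, squares replicate 2 and bars the mean of the 2 arrays. The polyHEMA and xenograft arrays sit above the Matrigel arrays for every gene but IFIT5, where PH7d replicate 2 (5.42) lies below MG4d replicate 1 (5.67).

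Compared to 2D, 7 of the 8 genes rose in PH4d and 7 rose in PH7d, against 2.58% and 3.87% of the 10970 genes tested that were called higher (limma, adjusted p under 0.05 and at least 2-fold). The exception on both days was IFIT5, undetected in 2D, which was at least 1.29-fold higher in PH4d (adjusted p = 0.147, n = 2 arrays per group) and at least 1.19-fold higher in PH7d (adjusted p = 0.149). The 8 genes had a median log2 difference of 4.06 in PH4d and 3.99 in PH7d (4.06 and 3.85 with IFIT3 and IFIT5 at their lower bounds), while the median of all genes tested was 0.03 and 0.05. All 8 were higher on both polyHEMA arrays than on both 2D arrays on each day, which held for 23.6% (PH4d) and 27.4% (PH7d) of all genes.

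IFIT1 rose by 5.71 ± 0.87 (SE) in PH4d (52.4-fold, adjusted p = 0.00828) and by 5.72 ± 0.87 in PH7d (52.6-fold, adjusted p = 0.00618). IFIT2 rose 16.9-fold (adjusted p = 0.0182) and 12.9-fold (adjusted p = 0.0216). IFIT3 rose at least 26-fold in PH4d (adjusted p = 0.038) and at least 15.9-fold in PH7d (adjusted p = 0.0498), bounds that set the undetected 2D level at the dimmest detected signal. Among the OAS genes, OAS2 rose by 6.04 ± 0.98 in PH4d (66-fold, adjusted p = 0.0104) and by 6.36 ± 0.98 in PH7d (82-fold, adjusted p = 0.00642), with 1 of its 2D arrays below detection. IFIT1 and OAS3 were also below detection on 1 of their 2D arrays. OAS1, OAS3 and OASL rose 10.5-, 16.4- and 14.2-fold in PH4d (adjusted p = 0.0114, 0.0129 and 0.00898) and 13.1-, 19.4- and 11.2-fold in PH7d (adjusted p = 0.00598, 0.00793 and 0.0101). These calls used the spread of all 12 arrays: from the 4 arrays of each comparison alone 0 of 8 passed. Without 2D7d replicate 1, 2 genes (OAS2 and OASL) passed in PH4d and 4 in PH7d. IFIT2 also lost its call without 2D7d replicate 2 or replicate 1 of the polyHEMA group compared, and IFIT3 without any 1 of these, a Matrigel or a xenograft array. The IFIT2 call was lost on both days with the authors' processed values (adjusted p = 0.0506 and 0.0536). The IFIT3 call was lost on both days with these values (adjusted p = 0.148 and 0.177), without background correction (0.0831 and 0.102), with an offset of 50 (0.0644 and 0.0793) and with no filter on dim probes (0.0787 and 0.0957), and in PH7d also with a detection p-value under 0.05 (0.0507).

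Probes of the same gene had differences of the same sign in polyHEMA. Of the 17 kept probes, 15 were detected on both arrays of a group other than PH4d and PH7d. Of these 15, 12 rose in PH4d and 11 in PH7d, against 1.84% and 2.86% of the 17821 probes of that kind. The remaining 2, both for OAS2, were kept only through the polyHEMA arrays. All 3 kept OAS1 probes and both OASL probes rose on each day. The dimmer IFIT1 probe had a difference of 2.34 (adjusted p = 0.0786) in PH4d where the brighter one rose by 5.71. The dimmest of the 3 IFIT3 probes had 1.39 (adjusted p = 0.302) in PH4d.

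In xenografts 4 of 8 genes rose above 2D, IFIT1, IFIT2, IFIT3 and OAS2, against 16.4% of all genes called higher. IFIT1 was 30.1-fold higher (4.91 ± 0.87, adjusted p = 0.00836), IFIT2 8.19-fold higher (3.03 ± 0.75, adjusted p = 0.0238) and IFIT3 at least 13.9-fold higher (adjusted p = 0.0274). OAS2 was 16.3-fold higher (4.03 ± 0.98, adjusted p = 0.0225). IFIT1, OAS2 and OAS3 were each below detection on 1 of the 2D arrays. OAS3 lay on the limit with 1.97 ± 0.69 (adjusted p = 0.05), and OASL (1.47 ± 0.59, adjusted p = 0.0717), IFIT5 (at least 1.2-fold, adjusted p = 0.0622) and OAS1 (0.70 ± 0.56, adjusted p = 0.31) did not pass. For OAS1 the result differed between probes: the other 2 kept probes rose by 2.14 (adjusted p = 0.0393) and 2.57 (adjusted p = 0.0385). The dimmer IFIT1 probe had 1.08 (adjusted p = 0.177). Of the other IFIT3 probes 1 rose by 4.21 (adjusted p = 0.0155) and 1 had 1.59 (adjusted p = 0.127). Of the other OAS2 probes 1 rose by 2.27 (adjusted p = 0.0148), and 2 had 1.035 (adjusted p = 0.207) and 0.35 (adjusted p = 0.199). Without 2D7d replicate 1, or without either xenograft array, 0 of 8 passed, and without 2D7d replicate 2 IFIT2 and IFIT3 lost their calls. Both also lost them with the authors' processed values, and IFIT3 without background correction or with no filter on dim probes.

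The xenograft arrays also differed from the cultures in some markers of other cells. The 8 fibroblast markers summed to 569 and 720 on the xenograft arrays and to 238 to 331 elsewhere, with COL1A2, PDGFRA, PDGFRB and THY1 undetected in xenograft, and the 3 erythroid markers summed to 347 and 361 against 85.5 to 250.4, with HBB and ALAS2 undetected. The 10 leukocyte markers summed to 1368 and 1403 in xenograft, 828 to 1054 in 2D and Matrigel and 1006 to 1522 in polyHEMA. They did not move together. On the log2 scale AIF1 (7.79 and 8.03 against 4.82 to 6.15) and CD68 (9.05 and 8.95 against 7.82 to 8.69) read higher in xenograft than elsewhere. CD14 read lower there (5.69 and 6.11 against 6.86 to 8.69). The 5 endothelial markers summed to 193.9 and 199.5 in xenograft, 186 to 237 in 2D and Matrigel and 365 to 448 in polyHEMA, with KDR and VWF detected on no array. The arrays carry human probes, whereas the host cells of these tumors come from mice. Among the fibroblast markers, DCN (7.66 and 7.97 against 4.47 to 4.69) and LUM (6.62 and 7.22 against 4.59 to 6.51) read higher in xenograft than elsewhere. Whether these probes read mouse RNA was not tested. The sums therefore do not measure host cells, and an undetected marker does not show that such cells were few. The part of other cells in the IFIT and OAS levels was not tested.

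**Figure D2:**
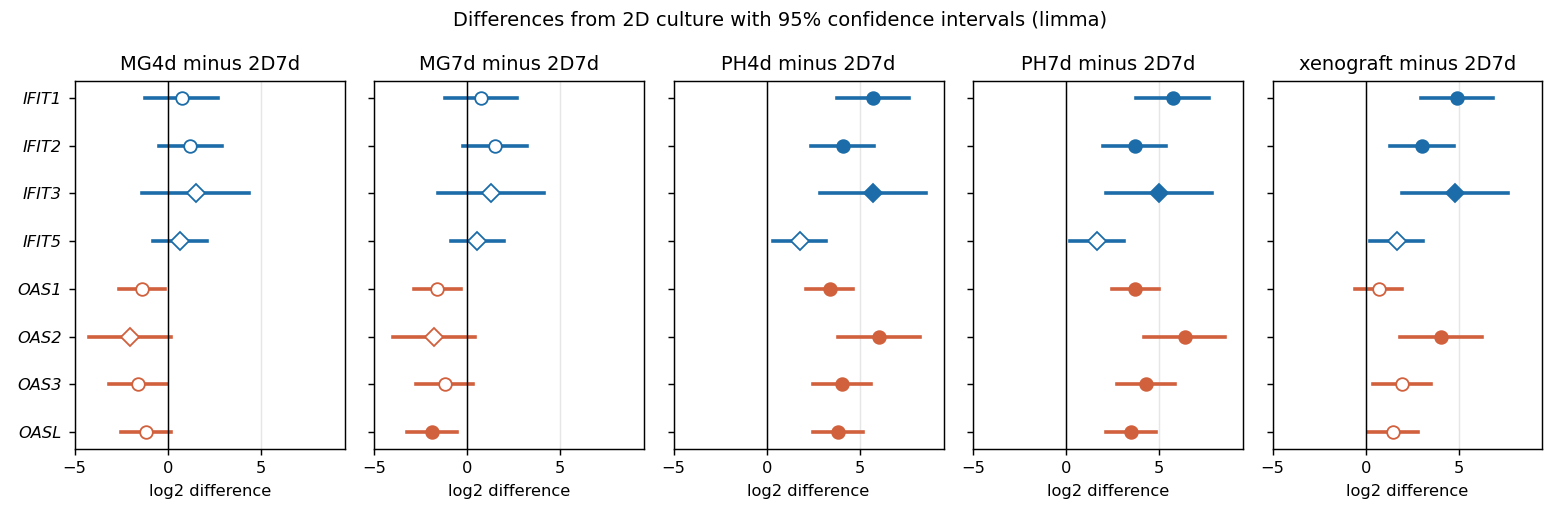
Log2 difference from 2D7d (x axis) of each gene (y axis) in the 5 other groups. Points are limma estimates, filled where called changed and drawn as diamonds where 1 or both groups did not detect the gene, and lines are 95% confidence intervals, with IFIT genes in blue and OAS genes in orange. In Matrigel the measured IFIT1 and IFIT2 lie right of 0 (0.74 to 1.49) and the measured OAS1, OAS3 and OASL left of it (-1.88 to -1.16).

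In Matrigel the members measured in both groups (detected on at least 1 array of each) lay on opposite sides of 2D by family, although few of these differences passed the test. IFIT1 and IFIT2 had differences of 0.74 to 1.21 in MG4d and 0.74 to 1.49 in MG7d, and OAS1, OAS3 and OASL had -1.60 to -1.16 and -1.88 to -1.22. IFIT3, undetected in 2D, was at least 1.41-fold higher in MG4d and at least 1.22-fold higher in MG7d, and OAS2, undetected in Matrigel, was at least 1.79- and 1.92-fold lower, none of them called. IFIT5 was detected in none of the 3 groups. In MG4d 0 of 8 genes were called, against 10.2% of all genes called higher and 11.5% called lower, and 2 of 8 had an unadjusted p under 0.05. In MG7d 1 of 8 was called, against 10.3% of all genes called lower: OASL fell by 1.88 on the log2 scale (SE 0.59, adjusted p = 0.0482). This call was lost when any 1 array of the 2D, Matrigel or xenograft groups was left out, whereas 2 or 3 genes passed without 1 of the polyHEMA arrays. In MG4d 1 gene, OAS1, passed without either PH4d array. OAS1 had -1.60 ± 0.56 (adjusted p = 0.058) in MG7d. IFIT2 had 1.21 ± 0.75 in MG4d (adjusted p = 0.212) and 1.49 ± 0.75 in MG7d (adjusted p = 0.135), with both Matrigel arrays above both 2D arrays on each day. From the 4 arrays of each comparison alone, IFIT2 (adjusted p = 0.0012 and 0.000617), IFIT3 (0.000315 and 0.000938) and OAS1 (0.0144 and 0.00618) passed in MG4d and MG7d. The share of all genes called was not computed for that fit. The 2D replicates weigh on the OAS values. On 2D7d replicate 1 OAS2 (4.71) lay within the range of the Matrigel arrays (4.60 to 4.93). So did OAS3 (5.95, within 5.32 to 5.97) and OASL (7.75, within 6.71 to 7.99), whereas OAS1 (6.79) lay above its range (5.76 to 6.29). Without 2D7d replicate 1 the IFIT1 difference turned negative (-0.53 on both days), and without 2D7d replicate 2 OAS2 was detected on no array of the comparison. Whether an IFIT and an OAS gene differ in their response to Matrigel was not tested.

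Between the anchorage-free and the Matrigel cultures OAS1, OAS3 and OASL differed by 4.77 to 5.63 and IFIT1, IFIT2 and IFIT3 by 2.20 to 4.98, while OAS2 and IFIT5 were detected on no Matrigel array. In PH4d against MG4d 6 of 8 genes were higher, against 8.33% of all genes, and in PH7d against MG7d 5 of 8, against 5.57%. All 4 OAS genes were among them on both days. OAS2 was at least 118-fold higher at 4 days and at least 158-fold higher at 7 days (adjusted p = 0.0014 and 0.00161). OAS1 was 27.3-fold higher at 4 days (4.77 ± 0.56, adjusted p = 0.00126) and 39.7-fold at 7 days (5.31 ± 0.56, adjusted p = 0.000994). OAS3 was 49.5- and 45-fold higher, and OASL 31.7- and 41.1-fold. These 8 calls, 4 genes on 2 days, held in every alternative that was run. IFIT1 was 31.4-fold higher at 4 days (adjusted p = 0.00644) and 31.5-fold at 7 days (adjusted p = 0.00785). IFIT2 passed at 4 days (2.87 ± 0.75, adjusted p = 0.0357) but not at 7 (2.20 ± 0.75, adjusted p = 0.0988), and IFIT3, with 4.21 ± 1.27 and 3.71 ± 1.27, missed on both (adjusted p = 0.0577 and 0.0981). This depended on the probe: another IFIT3 probe rose by 5.15 at 4 days (adjusted p = 0.00686) and 4.91 at 7 days (adjusted p = 0.0101), and with the mean of the kept probes IFIT3 passed on both days (adjusted p = 0.0406 and 0.0492). IFIT5 was at least 1.66- and 1.65-fold higher (adjusted p = 0.281 and 0.285). The IFIT1 calls were lost without either Matrigel array of the day compared, and the IFIT2 call without any 1 array of the 2D, Matrigel or xenograft groups or PH4d replicate 1, with the authors' processed values (adjusted p = 0.0618) or with no filter on dim probes (adjusted p = 0.0705).

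Against xenograft, the IFIT differences of polyHEMA cultures were 0.10 to 1.05 at 4 days and -0.01 to 0.80 at 7 days, with wide intervals (IFIT1 at 7 days, 95% confidence interval -1.15 to 2.75). The OAS differences were 2.01 to 2.69 at 4 days and 2.01 to 3.01 at 7 days. Whether the families differ here was not tested, and the IFIT1 interval covers part of the OAS differences. OAS1 was the 1 gene of 8 called in each, against 2.6% and 3.99% of all genes called higher, at 6.46-fold in PH4d (adjusted p = 0.0239) and 8.08-fold in PH7d (adjusted p = 0.0121). The other 2 kept OAS1 probes did not pass, with adjusted p = 0.107 and 0.148 in PH4d and 0.0655 and 0.0876 in PH7d, and with the mean of the kept probes the OAS1 call was lost in PH4d (adjusted p = 0.0681). OASL, which makes no second messenger, was 5.11-fold higher in PH4d (adjusted p = 0.0555) and 4.04-fold in PH7d (adjusted p = 0.074). Its other probe passed on both days (2.98, adjusted p = 0.0353, and 2.63, adjusted p = 0.0466). For OAS2 the brightest probe did not pass (adjusted p = 0.292 and 0.194), while a dimmer one did (2.09, adjusted p = 0.0373, and 2.38, adjusted p = 0.017). The other 2 OAS2 probes were kept only through the polyHEMA arrays. The OAS1 call was lost without either xenograft array on both days. At 4 days it was also lost without PH4d replicate 2 or either MG7d array. Without either 2D array 4 of 8 genes passed on both days, and 3 passed without PH4d replicate 1 (both days) or replicate 2 (7 days).

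Against Matrigel, 5 of 8 genes were higher in xenograft, IFIT1 and the 4 OAS genes, on each day. In all genes 7.06% were called lower in MG4d than in xenograft and 3.32% in MG7d. OAS2 was at least 29.3-fold lower in MG4d (adjusted p = 0.0045) and at least 31.4-fold lower in MG7d (adjusted p = 0.0089). IFIT1 was 18-fold lower in MG4d (adjusted p = 0.0146) and 18.1-fold in MG7d (adjusted p = 0.0234). Its dimmer probe had -0.79 in MG4d (adjusted p = 0.493) and -0.41 in MG7d (adjusted p = 0.868). With the mean of the kept probes the IFIT1 call was lost on both days (adjusted p = 0.0512 and 0.105), and with no filter on dim probes in MG7d (0.0503). The OAS1 call was lost on both days without background correction (adjusted p = 0.101 and 0.129) and with an offset of 50 (0.0675 and 0.08). It was also lost with the authors' processed values (0.259 and 0.338) and with no filter on dim probes (0.0756 and 0.0821). OAS3 lost its MG7d call with the last 2 settings (0.0792 and 0.0565). Calls also depended on the probe. IFIT3 had -3.31 in MG4d (adjusted p = 0.132) and -3.52 in MG7d (adjusted p = 0.174). Another of its probes was lower on both days (-3.52, adjusted p = 0.0363, and -3.64, adjusted p = 0.0489). The dimmer OASL probe did not pass (adjusted p = 0.112 and 0.0815), whereas the other kept OAS1 probes passed on both days. All 8 genes were lower on both Matrigel arrays than on both xenograft arrays, which held for 39.2% (MG4d) and 34.1% (MG7d) of all genes. Leaving out xenograft replicate 1 left 0 of 8 on both days, and leaving out xenograft replicate 2 or 1 of the Matrigel arrays compared left 1 (MG4d) or 0 (MG7d). Without either MG4d array 2 passed for MG7d, while the 4 compared arrays alone gave 8 of 8 on each day.

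No difference between 4 and 7 days of culture was detected at this precision in an unpaired fit. Same-numbered arrays of PH4d and PH7d deviated alike (r = 0.875), and the gap they share counted as error in this fit. A fit that pairs the polyHEMA arrays alone was not run. For day 7 against day 4, 0 of 8 genes were called in Matrigel and 0 of 8 in polyHEMA, with 0 at an unadjusted p under 0.05 in either (limma). In Matrigel 0.729% of all genes were called higher and 0.164% lower, and in polyHEMA 0% were called. The differences were -0.72 to 0.38 in Matrigel and -0.71 to 0.32 in polyHEMA, with wide intervals (OAS2 in polyHEMA, 95% confidence interval -1.89 to 2.51). For the difference in this change between polyHEMA and Matrigel, 0 of 8 were called and 0 had an unadjusted p under 0.05, against 0.0273% of all genes called lower.

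The duplicates of the polyHEMA groups differed in both families. All 4 IFIT genes were at least 2-fold higher on replicate 1 than on replicate 2 in PH4d and in PH7d, with median gaps of 1.501 and 2.421, against 21.6% and 19.1% of all genes. The OAS genes went the other way in PH4d, with a median gap of -1.12, of which OAS1 (-1.65) and OAS3 (-1.30) were past 2-fold, as were 16.6% of all genes in that direction, and had a median gap of 0.02 in PH7d, where 11.3% of all genes and no OAS gene were at least 2-fold higher on replicate 2. The IFIT3 gap was 2.86 in PH4d and 4.44 in PH7d. In 2D7d replicate 2 was higher by at least 2-fold for 5 members, IFIT1 and the 4 OAS genes, with an OAS2 gap of -3.85, whereas 0.775% of all genes were at least 2-fold higher on that array. In Matrigel and xenograft no member had a gap of 2-fold. What differed between the duplicate cultures is not given in the sources used here.

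**Figure D3:**
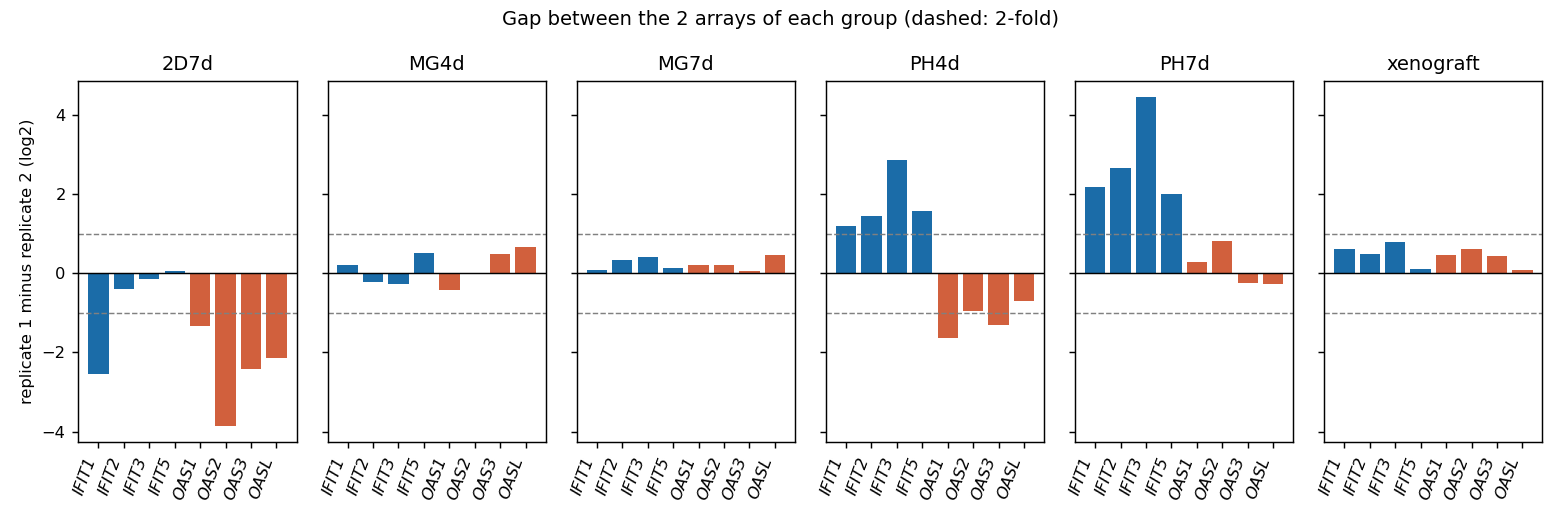
Log2 level on replicate 1 minus that on replicate 2 (y axis) of each gene (x axis) in the 6 groups, with dashed lines at 2-fold. IFIT bars (blue) are above 1 in PH4d and PH7d, from 1.20 to 4.44, and OAS bars (orange) are below -1 for all 4 genes in 2D7d.

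The polyHEMA result was therefore recomputed from each replicate. With replicate 1 alone, IFIT2 was higher than 2D by 4.80 in PH4d and 5.02 in PH7d, and with replicate 2 alone by 3.36 and 2.36. OAS1 had 2.56 with replicate 1 and 4.21 with replicate 2 in PH4d. All 8 genes kept a positive difference with either replicate on both days. This follows from both polyHEMA arrays being above both 2D arrays for each gene and is no further check. IFIT5, undetected in 2D, was called on both days with replicate 1 and on neither with replicate 2.

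Over the 12 arrays, the genes of a family followed each other. Pearson's r was 0.855 to 0.985 among the 6 IFIT pairs and 0.953 to 0.989 among the 6 OAS pairs, with medians of 0.939 and 0.976. The 16 pairs of an IFIT with an OAS gene had 0.536 to 0.939, with a median of 0.734. The arrays share groups and duplicates, so these values describe the pattern and carry no test. Centred on each gene's mean, the IFIT genes averaged 2.87 and 1.10 on the PH4d arrays and the OAS genes 2.47 and 3.62. In MG4d the averages were -1.27 and -1.33 for IFIT and -2.73 and -2.91 for OAS.

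**Figure D4:**
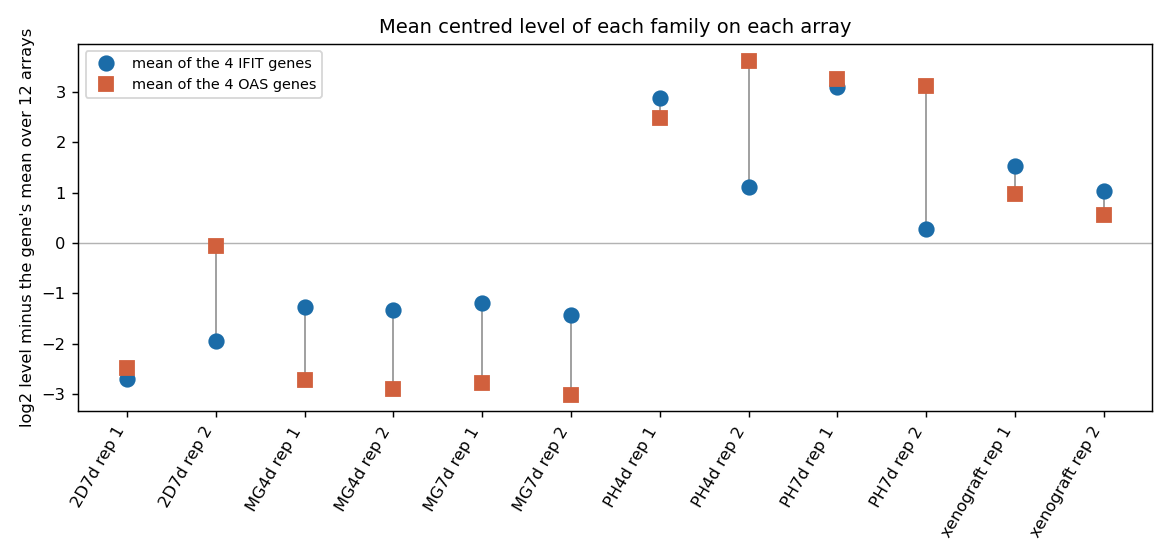
Mean of the 4 IFIT genes (circles) and of the 4 OAS genes (squares) on each of the 12 arrays (x axis), each gene as its log2 level minus its own mean over the arrays (y axis). OAS lies above IFIT on PH4d replicate 2 (3.62 against 1.10) and PH7d replicate 2 (3.11 against 0.28), and below it on all Matrigel and xenograft arrays.

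The genes most like the mean of the 8 members over the 12 arrays were LAMP3 (r = 0.994), RSAD2, CYP2J2, MX2, SP110, HERC6, IRF9, ZNF750, IFI44L and PARP9 (r = 0.974). RSAD2 encodes viperin, an antiviral enzyme of the endoplasmic reticulum, and MX2 a GTPase that blocks viral capsids. MX2, IRF9, ZNF750 and LAMP3 were closer to the OAS mean (r = 0.992, 0.978, 0.981 and 0.981) than to the IFIT mean (r = 0.859, 0.868, 0.858 and 0.897). HERC6, IFI44L and PARP9 were closer to the IFIT mean (r = 0.967, 0.964 and 0.974) than to the OAS mean (r = 0.912, 0.905 and 0.895).

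Part of the wider interferon pathway also rose in polyHEMA and xenograft. Of 53 listed genes outside the 2 families (ligands, receptors, kinases, transcription factors, RNA and DNA sensors, other interferon-stimulated genes), 46 were kept, and 4 of these (IFNB1, IFNL1, IFNL2 and TRIM22) only through the polyHEMA arrays. Of the other 42, 24 rose and 0 fell in PH4d against 2D, where 2.36% of all genes kept through another group rose, and 24 rose and 0 fell in PH7d, against 3.53%. In xenograft 22 of 46 rose and 2 fell, against 16.4% and 14.7% of all genes. Their median differences were 2.54, 2.69 and 1.44, against medians near 0 for all genes. In Matrigel the shares were near or below those of all genes, except for lower genes in MG4d: in MG4d 4 of 46 rose and 7 fell, against 10.2% and 11.5% of all genes, and in MG7d 2 rose and 4 fell, against 10.8% and 10.3%.

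Among the ligands, IFNB1, which encodes interferon beta, was detected on 3 of the polyHEMA arrays, at 5.74 and 6.59 in PH4d and 6.17 and 5.76 in PH7d against 4.44 to 4.87 on the other arrays. It was kept only through the polyHEMA arrays and so close to background that no fold is given. Neither xenograft array detected it, and these human probes were not made for interferon genes of the mouse host. The source of any interferon was not tested. IFNL1, a type III interferon ligand of epithelia, read 6.51 and 8.98 in PH4d, 7.82 and 8.49 in PH7d and 4.63 to 5.20 on the other arrays. The receptor chains IFNAR1 (0.57 ± 0.55 in PH4d, adjusted p = 0.484) and IFNAR2 (-0.03 ± 0.23, adjusted p = 0.925) did not pass. IRF9 rose in PH4d (3.15 ± 0.41, adjusted p = 0.00483), PH7d (3.32 ± 0.41, adjusted p = 0.00262) and xenograft (2.42 ± 0.41, adjusted p = 0.00757).

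IRF1, a transcription factor that also acts on interferon targets, differed from the members: it rose in Matrigel (1.39 ± 0.32 in MG4d, adjusted p = 0.0239) as in polyHEMA (1.40 ± 0.32 in PH4d, adjusted p = 0.0427) and had -0.37 ± 0.32 in xenograft (adjusted p = 0.338). IRF7 was detected on no array. ABCE1, a ribosome recycling factor, rose in MG4d (2.67 ± 0.82, adjusted p = 0.0452) and had 0.84 ± 0.82 in PH4d (adjusted p = 0.494). PDE12, which degrades the OAS messenger, had -0.24 ± 0.22 in PH4d (adjusted p = 0.475). MX1, a GTPase that traps viral nucleoproteins, rose by 4.79 ± 0.75 in PH4d (adjusted p = 0.00944) and 3.50 ± 0.75 in xenograft (adjusted p = 0.017). ISG15, a ubiquitin-like modifier, rose in PH4d (2.57 ± 0.39, adjusted p = 0.00828) and xenograft (1.39 ± 0.39, adjusted p = 0.0308) and fell by 1.60 in MG4d (SE 0.39, adjusted p = 0.0268) and by 2.04 in MG7d (SE 0.39, adjusted p = 0.0223), the direction of the OAS values there.

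The polyHEMA duplicates also differed in pathway genes. In PH4d 11 of 46 were at least 2-fold higher on replicate 1, a share near the 21.6% of all genes, and 14 on replicate 2, against 16.6%. In PH7d the counts were 17 and 1, against 19.1% and 11.3%. The 11 genes higher on replicate 1 in PH4d were so in PH7d as well, among them SAMD9 (3.06 in PH4d), DDX60 (2.65), IFI44L (1.73) and IFIH1 (1.66), an RNA sensor. Among the 14 higher on replicate 2 in PH4d were IFNL1 (-2.47), IFI27 (-2.43), IFITM1 (-2.34) and USP18 (-1.30), an inhibitor of interferon signaling.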

How the data were processed

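RNA of JIMT1 cells was read on 12 arrays, 2 per group. The authors deposited a non-normalized table with an intensity per probe, without background subtraction, and a detection p-value against the negative controls of each array. They also deposited processed log2-like values, obtained by variance stabilization in lumi, whose version is not given in the sources used here. Matched by rank to the intensities, 38524 of its 47323 probes carried a different ID, so it served only as an alternative, named through that match. Its scale at low signal is unknown, its columns are not centred by gene (median 7.391 in each) and they run in the direction of the intensities.

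The neqc function (limma 3.58.1, R 4.3.3) applied normexp background correction, with the background inferred from the detection p-values and an offset of 16, then quantile normalization and log2. Probes with a detection p-value under 0.01 on both duplicates of 1 group or more were kept. The brightest kept probe per gene gave 10970 genes. A linear model with 1 mean per group over all 12 arrays and eBayes (6 residual and 3.17 prior degrees of freedom) gave 14 comparisons, with Benjamini-Hochberg adjustment over all genes of each. The script was tested on simulated data. Calls needed both a 2-fold change and an adjusted p under 0.05. A group whose arrays both missed a gene was set, for each array, to the dimmest detected signal, or to the gene's own value if that was higher, which makes the printed fold a bound. The number of arrays limits the precision. The p-values rest on the spread between duplicates pooled over all groups, not on that of the groups compared alone. An exact test of 2 against 2 arrays cannot go below p = 0.333 (two-sided).

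The members, the pathway and marker lists and the alternatives were chosen with earlier results of these data known. All members are described in every comparison. Beside them are 10 pathway genes given whatever they do (IRF9, IRF7, IRF1, ABCE1, PDE12, MX1, ISG15, IFNB1, IFNAR1 and IFNAR2) and the 10 genes with the highest correlation with the member mean. Other pathway genes were named after their values were seen. Some genes of the lists are not reported here. Alternatives were the scaling, background correction, offset, processed values, averaged probes, detection filter, arrays fitted, array weights, a replicate block and leaving out arrays.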

Additional observations from a re-analysis of the deposited data

Results flagged for a closer look

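The effect of culture model on the OAS genes differed between polyHEMA and Matrigel. Each of the 4 OAS genes had a positive difference from 2D in polyHEMA and a negative one in Matrigel, and the polyHEMA minus Matrigel difference passed the test (limma, 2 arrays per group). At 4 days it was 4.77 for OAS1 (adjusted p = 0.00126), 8.08 for OAS2 (adjusted p = 0.0014), 5.63 for OAS3 (adjusted p = 0.00142) and 4.99 for OASL (adjusted p = 0.00134) on the log2 scale. At 7 days it was 5.31 for OAS1 (adjusted p = 0.000994), 8.16 for OAS2 (adjusted p = 0.00161), 5.49 for OAS3 (adjusted p = 0.00201) and 5.36 for OASL (adjusted p = 0.00121). OAS2 was detected on no Matrigel array, so its values of 8.08 and 8.16 are against background and stand for at least 118-fold and at least 158-fold. Both comparisons share the 2D arrays, whose OAS values differed between the duplicates, and the difference between them does not depend on 2D. The negative signs in Matrigel do depend on it. Among them only OASL in MG7d was called (limma, adjusted p = 0.0482), a call that several settings lost. Without 2D7d replicate 2 the MG7d difference was 0.12 for OAS2, undetected on the arrays left, and -0.01 for OAS3.

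Both probes left out of the report gave signal in polyHEMA. The OAS1 probe that was not kept read an intensity of 173.5 on PH4d replicate 2 and 127.3 on PH7d replicate 2, detected on both, against 77.9 and 75.4 on the 2D arrays. The OAS3 probe that was not kept read 142.1 on PH4d replicate 2 against 80.2 and 90.05 in 2D. On replicate 1 of PH4d and PH7d neither was detected.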

How the results depend on the processing

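Of the 112 differences of the 8 genes in 14 comparisons, 84 kept their sign under every alternative, and 1 reversed past the threshold: with both polyHEMA replicate 1 arrays left out, IFIT3 was lower in PH7d than in xenograft, at -2.03 (adjusted p = 0.000256) against 0.19 with all arrays. The OAS calls in polyHEMA against Matrigel were kept throughout. With 2 arrays per group, 1 array can decide a call, and the array weights were low for PH4d and PH7d (0.171 and 0.213) and 1.42 to 3.11 elsewhere. The dim IFIT5 probe is limited by its signal over background. Causes were not tested.

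Leaving out 1 array at a time, the genes called ranged from 0 to 1 for MG4d and from 0 to 3 for MG7d against 2D, from 2 to 8 for PH4d, from 4 to 8 for PH7d and from 0 to 6 for xenograft. Against xenograft they ranged from 0 to 7 for MG4d, from 0 to 6 for MG7d and from 0 to 4 for PH4d and for PH7d. For polyHEMA against Matrigel they ranged from 4 to 7 at 4 days and from 4 to 7 at 7 days, and they stayed at 0 for the days. A lone array was taken to vary like the other groups.

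The following counts moved by over 1.5 times, each out of 8. The share of all genes called was not computed for any alternative. The counts therefore show how the calls depend on the setting and cannot be set against the shares of the main fit. With only the 4 arrays compared, 0 genes passed in PH4d and 0 in PH7d against 2D, 3 in MG4d, 4 in MG7d, 8 in MG4d and 8 in MG7d against xenograft and 0 in PH4d against xenograft. With array weights, the counts against 2D were 6 (MG4d), 6 (MG7d), 2 (PH4d), 4 (PH7d) and 7 (xenograft), and 8 in MG4d, 8 in MG7d and 0 in PH4d against xenograft. Without both polyHEMA replicate 1 arrays, 4 passed in MG4d, 4 in MG7d and 7 in xenograft against 2D, and the counts against xenograft were 8 (MG4d), 8 (MG7d), 3 (PH4d) and 5 (PH7d). Without both polyHEMA replicate 2 arrays, 4, 4 and 7 passed in the same comparisons with 2D, 8, 8, 3 and 4 in those with xenograft, and 8 in PH7d against MG7d. For MG7d against 2D, 0 passed with median scaling, no background correction, an offset of 50, the authors' processed values, the mean of the kept probes, no filter on dim probes or a detection p-value under 0.05. For PH4d against xenograft, 2 passed without background correction, with an offset of 50 and with the mean of the probes, and 3 with the processed values. For PH7d these gave 3, 2, 2 and 4. With the processed values 2 passed in xenograft against 2D and 3 in MG7d against xenograft, where no filter on dim probes gave 2. Median scaling shifted the median of all genes by up to 0.208 (PH7d against 2D), and against 2D and between polyHEMA and Matrigel it changed no sign. It turned IFIT5 in PH4d against xenograft from 0.10 to -0.07.

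The labels tie no replicate number to a shared batch, and the correlation of same-numbered deviations was over 0.1 in only 8 of 15 pairs of groups (-0.116 to 0.875, the highest between PH4d and PH7d), so the numbers were not taken to pair the samples. With the replicate number as a block, 2 genes passed in MG7d against 2D and 2 in PH4d against xenograft, and the other counts were within 1.5 times.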
